A study of Mus musculus with 22 samples.

Results

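Myog, Myod1, Id1 and Id3 were read as 4 windows of poly(A) sites, placed on the mm9 genome by position, out of 28314 features in the table of all 3′READS libraries. In 3′READS the sequenced fragment ends where the poly(A) tail begins, so each read marks an RNA 3′ end and its strand. All listed sites on the gene's strand inside a window were summed, and the sum was scaled to the library total to give CPM (the count for each 1000000 reads of the library). The other features were groups of neighbouring poly(A) sites, which stood in for genes because the files carry no gene names. The members were not chosen by a measured threshold, but they were chosen with earlier results of these data known. Tests on them are therefore no independent support.

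The 20 libraries of 3′READS came from 3 mouse cell lines in 10 groups of 2 libraries. C2C12 is a myoblast line that fuses into myotubes in culture, NIH3T3 is an embryonic fibroblast line and 4T1 is a mammary carcinoma line. C2C12 was sampled as proliferating and as differentiated cells, known as such from the sample titles alone. A second C2C12 set held untreated and siPcf11 cells, each as total RNA and as newly made RNA labelled with 50 µM 4-thiouridine (4sU) for 1 h. NIH3T3 held untreated and siPcf11 cells, and 4T1 held untreated cells and cells labelled Pcf11-IPAKO, an abbreviation that the labels do not spell out. The labels name no control siRNA. They give C57BL/6 as the strain throughout, an entry that was not checked against the origin of the lines. The labels do not say how many clones stand behind the Pcf11-IPAKO cells. The 2 RNA-seq libraries, 1 untreated and 1 labelled siPcf11, came from 3T3-L1 preadipocytes. PCF11 belongs to the complex that cuts nascent transcripts and adds their poly(A) tails. The labels do not say whether the 2 libraries of a group are separate cultures, so every adjusted p rests on a spread that may be technical.

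Library totals lay between 1887532 and 4432717 reads. Replicate libraries were not copies of each other: their chi-square divided by its degrees of freedom was 1.83 to 13.2. It was 13.2 in NIH3T3 siPcf11, 10.4 in 4T1 control and 8.9 in 4T1 Pcf11-IPAKO, and at most 2.62 in every other group. These noisier groups enter the NIH3T3 and 4T1 tests and the fit of all 20 libraries, so a result that did not pass there is no sign of an absent response. The level of Pcf11 in the 3′READS libraries was not analysed here. In 3T3-L1 RNA-seq, Pcf11 had 939 counts in the untreated library and 840 in the library labelled siPcf11, which is 110 and 120 CPM. Pcf11 was therefore not lower in the library labelled siPcf11 than in the control library.

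MyoD (Myod1) and myogenin (Myog) are basic helix-loop-helix transcription factors of the muscle lineage. They pair with E proteins and bind E-boxes, the motif CANNTG, in muscle genes. MyoD marks committed myoblasts, and myogenin is switched on when they leave the cell cycle and begin terminal differentiation. Id1 and Id3 have a helix-loop-helix but no DNA-binding region, so they tie up E proteins and hold the muscle factors back. Both Id genes are known targets of BMP-SMAD signalling.

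The promoters of Myog and Id3 are shown, a gene that rose and a gene that fell in differentiating C2C12. The sequences are the 250 bases before the annotated start, from RefSeq on GRCm38.p6, another build than that of the read files, and CANNTG motifs are in capitals. The Myog stretch is chr1:134289754-134290003 on the plus strand and the Id3 stretch is chr4:136143572-136143821 on the plus strand. The table held these promoters for 2 of the 4 members.
Myog: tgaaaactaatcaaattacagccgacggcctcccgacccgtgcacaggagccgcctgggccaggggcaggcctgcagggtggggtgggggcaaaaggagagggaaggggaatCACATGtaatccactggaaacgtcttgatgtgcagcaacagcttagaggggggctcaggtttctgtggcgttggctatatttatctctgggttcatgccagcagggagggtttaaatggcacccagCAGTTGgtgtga
Id3: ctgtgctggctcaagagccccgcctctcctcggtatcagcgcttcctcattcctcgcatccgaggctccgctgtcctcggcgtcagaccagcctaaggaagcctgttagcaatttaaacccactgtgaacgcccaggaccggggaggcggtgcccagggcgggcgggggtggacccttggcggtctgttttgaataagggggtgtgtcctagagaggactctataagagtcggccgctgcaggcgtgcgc
CANNTG reads the same on both strands. It occurred at 2 places in the Myog stretch, CACATG at 138 bases and CAGTTG at 12 bases before the start, and at 0 places in the Id3 stretch. Of 32851 promoters of this length in the table, 66.2% held at least 1 CANNTG and 31.8% held at least 2. CAGCTG, a form of the motif found in many muscle genes, was in neither stretch and in 13.0% of all promoters. A match gives the letters only and is no evidence of binding.

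Each member had 1 poly(A) site with most of its reads. For Myog this site was at position 136189127 of chromosome 1, with 99.3% of the window's 9875 reads. For Myod1 it was at 53634469 of chromosome 7, with 98.7% of 461 reads. For Id1 it was at 152563146 of chromosome 2, with 94.9% of 5663 reads. For Id3 it was at 135701302 of chromosome 4, with 89.8% of 25306 reads, and a second site 29 bases upstream held 9.03%. All 4 sites are on the plus strand of mm9. No annotation of that build was at hand to place them in an exon or other part of the gene. Reads on the opposite strand of the windows were few: 0 for Myog, 1 for Myod1, 5 for Id1 and 6 for Id3 over the 20 libraries. In the 5 kb after the windows lay 14 reads for Myog, 0 for Myod1, 23 for Id1 and 129 for Id3. For Id1 these were 5 and 3 in siPcf11 C2C12 4sU libraries and 3 and 2 in siPcf11 C2C12 total RNA libraries. Untreated C2C12 libraries of that set had 0. The rest lay in 4T1 Pcf11-IPAKO (1 and 6), proliferating C2C12 (1 and 1) and NIH3T3 siPcf11 (0 and 1). This difference in reads after the Id1 window was not tested. In the RefSeq gene order the next genes were Ppfia4 after Myog and E2f2 after Id3.

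Myog reads came almost entirely from differentiated C2C12. It had 1120 and 1249 CPM in the 2 differentiated libraries, from 4334 and 5537 reads, and 0 reads in the 2 proliferating libraries. Over the remaining 16 libraries it had 4 reads in all: 2 in an untreated C2C12 total RNA library, 1 in a siPcf11 C2C12 total RNA library and 1 in a 4T1 Pcf11-IPAKO library. A count of 0 allowed up to 0.410 CPM over the proliferating group (3 counts). The levels outside the differentiated group could not be ordered at this depth.

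Myod1 was read in all 12 C2C12 libraries and in none of the 8 NIH3T3 and 4T1 libraries. Its mean was 38.2 ± 4.00 CPM in differentiated and 8.85 ± 1.36 CPM in proliferating cells (SD, n = 2 here and for every group below). In untreated C2C12, 4sU RNA had 6.14 ± 1.23 CPM and total RNA 5.73 ± 1.26 CPM, which overlapped. In siPcf11 cells, 4sU RNA had 2.81 ± 0.744 CPM and total RNA 2.16 ± 1.55 CPM, which also overlapped. The limit that a count of 0 allows was 0.463 CPM over the NIH3T3 controls and 0.503 CPM over the 4T1 controls. Reads of Myod1 in the libraries labelled C2C12 alone go with that label; the files hold no gene names by which further muscle markers could be read.

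Id1 had reads in every library and varied least among the members. Its highest group means were 156 ± 7.31 CPM in untreated C2C12 4sU RNA and 151 ± 11.3 CPM in untreated C2C12 total RNA. Next came 4T1 Pcf11-IPAKO at 118 ± 23.6, proliferating C2C12 at 113 ± 19.1, NIH3T3 control at 101 ± 8.53, 4T1 control at 86.1 ± 24.8 and NIH3T3 siPcf11 at 79.5 ± 16.3 CPM. In this stretch of the order each group overlapped the next lower one. The siPcf11 C2C12 groups had 67.8 ± 8.95 CPM in total and 66.9 ± 7.26 CPM in 4sU RNA, and differentiated C2C12 was lowest at 37.9 ± 7.04 CPM, below every library of the other groups.

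Id3 was highest in the C2C12 groups other than the differentiated one. It had 1491 ± 219 CPM in proliferating C2C12, 997 ± 37.7 CPM in untreated C2C12 total RNA and 788 ± 98.9 CPM in siPcf11 total RNA. In 4sU RNA it had 574 ± 86.0 CPM in untreated and 399 ± 102 CPM in siPcf11 cells. In CPM these 5 C2C12 groups did not overlap their neighbours in the order. All other groups lay far lower, at 73.9 ± 32.3 CPM in 4T1 control, 58.0 ± 0.216 in 4T1 Pcf11-IPAKO, 49.3 ± 4.09 in NIH3T3 control, 46.2 ± 0.502 in differentiated C2C12 and 16.7 ± 13.3 in NIH3T3 siPcf11.

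**Figure D1:**
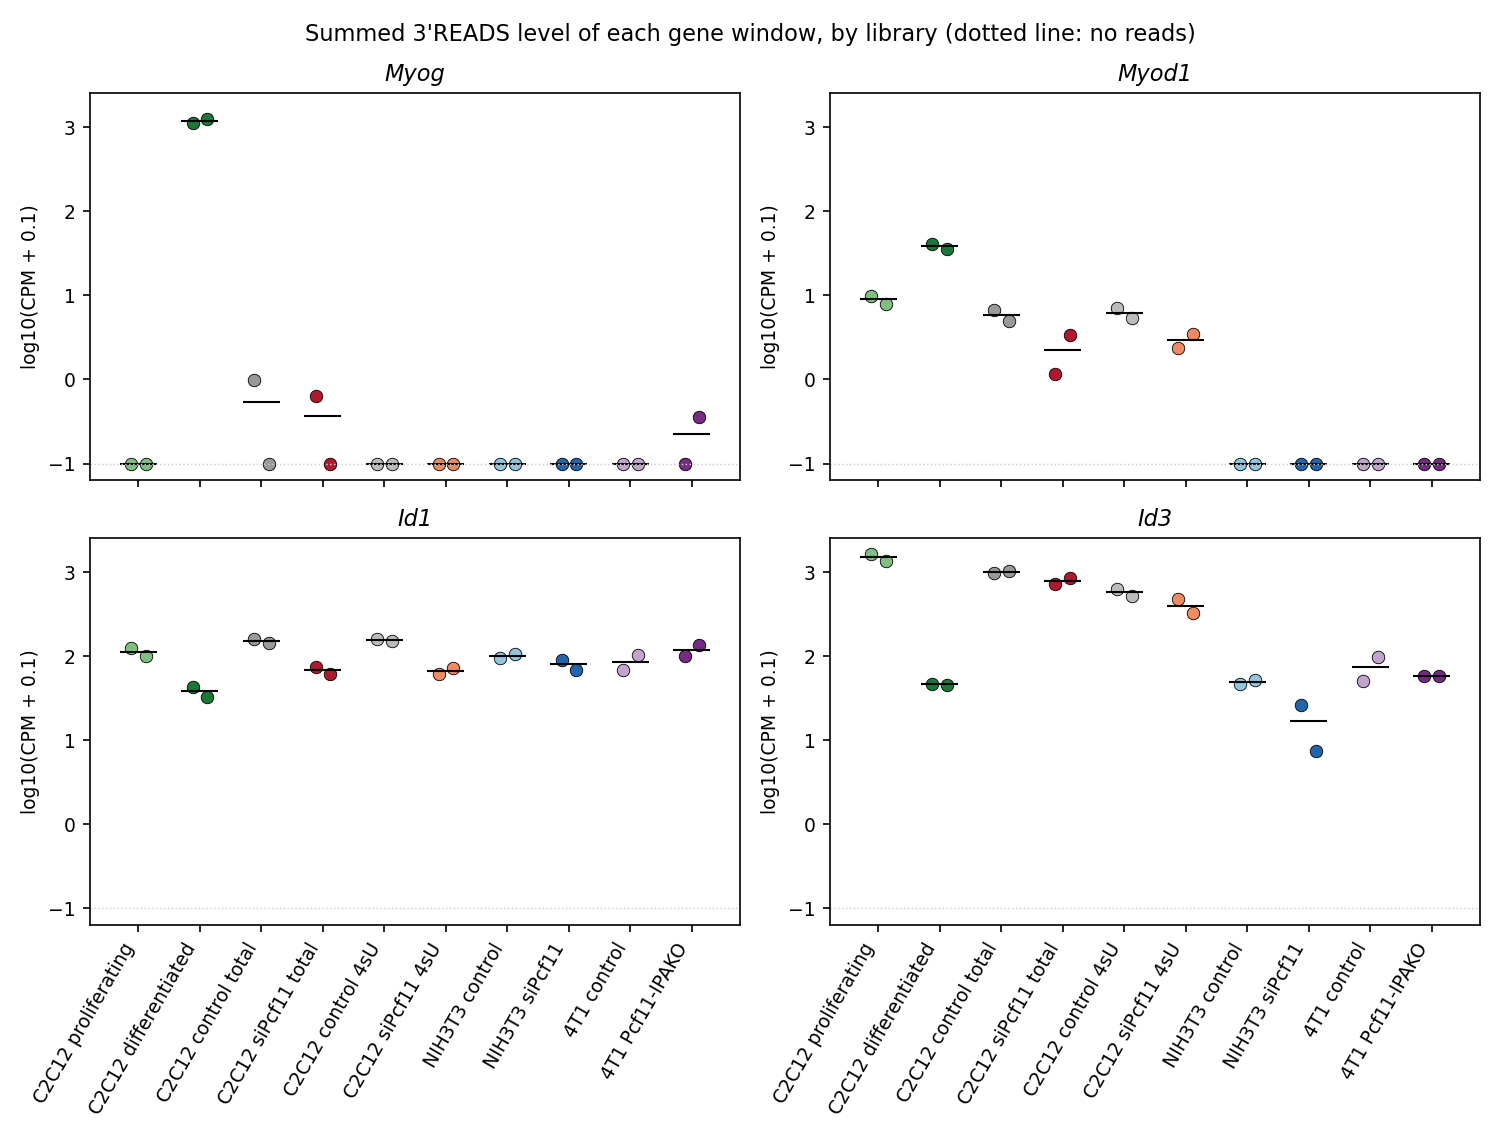
Level of each gene window in each of the 20 3′READS libraries, as log10 of CPM plus 0.1, by group, with points for libraries and a line at the group mean. Myog stands near 3 in differentiated C2C12 only, Myod1 is at the dotted line of no reads in NIH3T3 and 4T1, and Id3 is high in every C2C12 group except the differentiated one.

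The first comparison set differentiated against proliferating C2C12. The myogenic factors rose and the Id genes fell. All 4 members passed the test (edgeR's quasi-likelihood F-test with Benjamini-Hochberg adjusted p under 0.05), in a comparison in which 62.3% of 11760 features passed, so a pass by itself is common here. Myog was at least 2887-fold higher in differentiated cells, set against 3 counts over the proliferating group, and its adjusted p was 4.15e-43 (edgeR). Myod1 had 41.1 and 35.4 CPM in differentiated and 9.82 and 7.89 CPM in proliferating libraries. Its level was 4.32-fold higher by mean CPM, with a log2 difference of 2.26 (SE 0.22; adjusted p = 1.80e-13, edgeR). The median of all features was 0.03 on the same log2 scale.

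Both Id genes went the other way. Id1 had 42.9 and 32.9 CPM in differentiated and 126 and 99.1 CPM in proliferating libraries. It fell by 1.43 on the log2 scale (SE 0.15; adjusted p = 2.03e-12, edgeR), and was 2.97-fold lower by mean CPM. Id3 had 46.5 and 45.8 CPM in differentiated and 1646 and 1337 CPM in proliferating libraries. It fell by 4.87 on the log2 scale (SE 0.12; adjusted p = 4.39e-38, edgeR), and was 32.3-fold lower. Neither pair of groups overlapped. In bulk RNA, fewer cells with a transcript and less of it per cell cannot be told apart, here and in the comparisons below. These calls held in every alternative tried.

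Pcf11 knockdown in C2C12 was compared in total RNA and in 4sU RNA, to set steady levels beside newly made RNA. Id1 fell in both. In total RNA it had 159 and 143 CPM in untreated and 74.2 and 61.5 CPM in siPcf11 libraries, a log2 difference of −0.995 (SE 0.15; adjusted p = 1.58e-09, edgeR). In 4sU RNA it had 161 and 151 CPM in untreated and 61.8 and 72.1 CPM in siPcf11 libraries, a log2 difference of −0.91 (SE 0.15; adjusted p = 2.58e-08, edgeR). The groups were apart in both kinds of RNA, by 2.23-fold and 2.33-fold in mean CPM. The 1 of 4 members that passed stands beside 51.6% of 11102 features that passed in total RNA and 53.5% that passed in 4sU RNA.

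Id3 did not pass in either. It had 970 and 1024 CPM in untreated and 718 and 858 CPM in siPcf11 total RNA, with a log2 difference of −0.17 (SE 0.11; adjusted p = 0.214, edgeR). In 4sU RNA it had 635 and 513 CPM in untreated and 471 and 327 CPM in siPcf11 libraries, with a log2 difference of −0.21 (SE 0.12; adjusted p = 0.111, edgeR). The CPM values of untreated and siPcf11 libraries did not overlap, but the separation and the call turned on the scaling. On the TMM scale of this fit, Id3 had 921 and 965 CPM in untreated and 766 and 911 CPM in siPcf11 total RNA. These did not overlap. On the same scale, 4sU RNA had 569 and 459 CPM in untreated and 523 and 362 CPM in siPcf11 libraries, which overlapped. With TMM factors from all libraries, total RNA had 847 and 899 CPM in untreated and 759 and 922 CPM in siPcf11 libraries. These overlapped. With library totals in place of TMM factors, Id3 passed at −0.34 in total RNA (adjusted p = 0.00791, edgeR) and at −0.52 in 4sU RNA (adjusted p = 4.77e-05, edgeR). That scaling also moved the median of all features to −0.19 in total and −0.27 in 4sU RNA, from −0.02 and 0.04. Against those medians Id3 stood at −0.15 in total RNA under both scalings, and at −0.25 in 4sU RNA under both. Id3 in 4sU RNA also passed without untreated 4sU replicate 2 (−0.36, adjusted p = 0.02, edgeR), without siPcf11 4sU replicate 1 (−0.59, adjusted p = 3.02e-04, edgeR) and in a fit of the 4 compared libraries alone (−0.28, adjusted p = 0.0339, edgeR). In total RNA, leaving out siPcf11 replicate 1 turned the difference to 0.050 (adjusted p = 0.791, edgeR).

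Myod1 was low in this set, with 27 reads in the untreated and 10 in the siPcf11 total RNA group, and 32 and 12 reads in 4sU RNA. It had 6.62 and 4.85 CPM in untreated and 1.06 and 3.26 CPM in siPcf11 total RNA. Its log2 difference was −1.13 (SE 0.61; adjusted p = 0.112, edgeR) in total RNA and −0.81 (SE 0.58; adjusted p = 0.234, edgeR) in 4sU RNA. The libraries did not overlap in either kind of RNA, but the difference was not detectable by the test at this depth. With a library left out, the total RNA value ranged from −0.54, without siPcf11 replicate 1, to −2.10, without siPcf11 replicate 2, and did not pass (adjusted p from 0.0719 to 0.554, edgeR). Myog did not pass the filter on low counts.

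The response to siPcf11 was then compared between 4sU and total RNA. No member differed (0 of 3 tested), in a comparison in which 0.847% of 11102 features passed in edgeR. The 4sU response minus the total response was 0.08 (SE 0.22) for Id1, −0.05 (SE 0.16) for Id3 and 0.32 (SE 0.86) for Myod1 on the log2 scale, with adjusted p of 0.929, 0.947 and 0.930 in edgeR. None of the 3 had an unadjusted p under 0.05 in edgeR.

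Newly made RNA held less Id3 than total RNA did. In untreated C2C12 the log2 difference of 4sU against total RNA was −0.87 (SE 0.11; adjusted p = 1.53e-11, edgeR), and in siPcf11 C2C12 it was −0.92 (SE 0.12; adjusted p = 5.19e-12, edgeR). By mean CPM, Id3 was 1.74-fold lower in untreated and 1.98-fold lower in siPcf11 4sU libraries, and the libraries did not overlap. Of all features, 27.8% passed in untreated and 18.4% in siPcf11 cells. Id1 and Myod1 did not pass, and Myog was left out by the filter on low counts. Id1 differed by −0.03 (SE 0.14) and 0.05 (SE 0.17), and Myod1 by 0.03 (SE 0.49) and 0.35 (SE 0.71), in untreated and siPcf11 cells. The 4sU comparisons use the same total RNA libraries as the siPcf11 comparison.

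In NIH3T3, where the Myod1 and Myog windows had no reads, siPcf11 was set against untreated cells. No feature passed in edgeR (0% of 13576; 2267 had an unadjusted p under 0.05, and DESeq2 passed 332 of 8312). Id3 had 46.5 and 52.2 CPM in untreated and 26.1 and 7.32 CPM in siPcf11 libraries. Its log2 difference was −1.57 (SE 0.54; adjusted p = 0.233, edgeR; 0.0824 in DESeq2). The siPcf11 libraries had 73 and 28 reads in the window, and 13 and 42 in the 5 kb after it. With the window extended by 5 kb, a setting chosen after the data were seen, the difference was −1.19 (adjusted p = 0.174, edgeR). In the window as set, the groups did not overlap, and the 2 siPcf11 libraries lay far apart. Without siPcf11 replicate 1 the difference was −2.77 (adjusted p = 2.51e-15, edgeR), and without siPcf11 replicate 2 it was −0.88 (adjusted p = 0.0147, edgeR); in these fits the lone siPcf11 library is assumed to vary like the control libraries. Id1 had 94.8 and 106.9 CPM in untreated and 91.0 and 67.9 CPM in siPcf11 libraries, with a log2 difference of −0.33 (SE 0.25; adjusted p = 0.572, edgeR). Without siPcf11 replicate 1 it passed at −0.59 (adjusted p = 0.0162, edgeR).

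The Id3 reads of NIH3T3 were also placed differently along the gene. In NIH3T3 a site 370 bases after the most used site held 25.3% and 21.3% of the window's reads in untreated libraries. The C2C12 and 4T1 libraries had no reads at that position, but 14 of them had reads at a position 375 bases after the most used site. That position had 126 reads in all and none in NIH3T3. Whether these neighbouring positions are the same site was not tested. The share of reads after the most used site was higher in siPcf11 libraries, at 45.2% (33 of 73 reads, exact 95% binomial interval 33.5 to 57.3%) and 46.4% (13 of 28 reads, 27.5 to 66.1%). In the other cell lines this share was at most 3.57%, in a 4T1 Pcf11-IPAKO library. In C2C12 total RNA it was 0.318% and 0.237% in untreated libraries, from 7 and 6 reads. In siPcf11 libraries it was 0.959% and 0.759%, from 13 and 16 reads. These values did not overlap, but their exact 95% binomial intervals did. The intervals were 0.128 to 0.655% and 0.0869 to 0.514% in untreated, and 0.511 to 1.63% and 0.435 to 1.23% in siPcf11 libraries. In C2C12 4sU RNA the share was 0.491% and 1.25% in untreated and 1.46% and 2.34% in siPcf11 libraries. These intervals cover counting error only, since PCR copies of a molecule are not independent.

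A further NIH3T3 site lay past the end of the Id3 window, 1964 bases after the most used site, and had 100 reads, all from the 4 NIH3T3 libraries. When reads to 5 kb past the window were counted, 32.8 ± 4.34% of Id3 reads in untreated and 66.0 ± 17.7% in siPcf11 NIH3T3 lay after the most used site. The siPcf11 libraries stood at 53.5 and 78.6%. In siPcf11 replicate 2, 60.0% of these Id3 reads (42) lay at the site past the window. That library had 3826862 reads at 53584 listed sites. In siPcf11 replicate 1 there were 2792385 reads at 55199 sites. Untreated libraries had 3142949 reads at 66799 sites and 3331090 at 72269. Whether replicate 2 held fewer distinct molecules was not tested. Reads at or before the most used site were 34.7 and 41.1 CPM in untreated and 14.3 and 3.92 CPM in siPcf11 libraries. Reads after it were 19.4 and 17.4 CPM in untreated and 16.5 and 14.4 CPM in siPcf11 libraries. The reads before the site thus made up most of the difference in the summed level. Whether all reads past the window belong to Id3 was not tested, as the files name no genes.

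**Figure D2:**
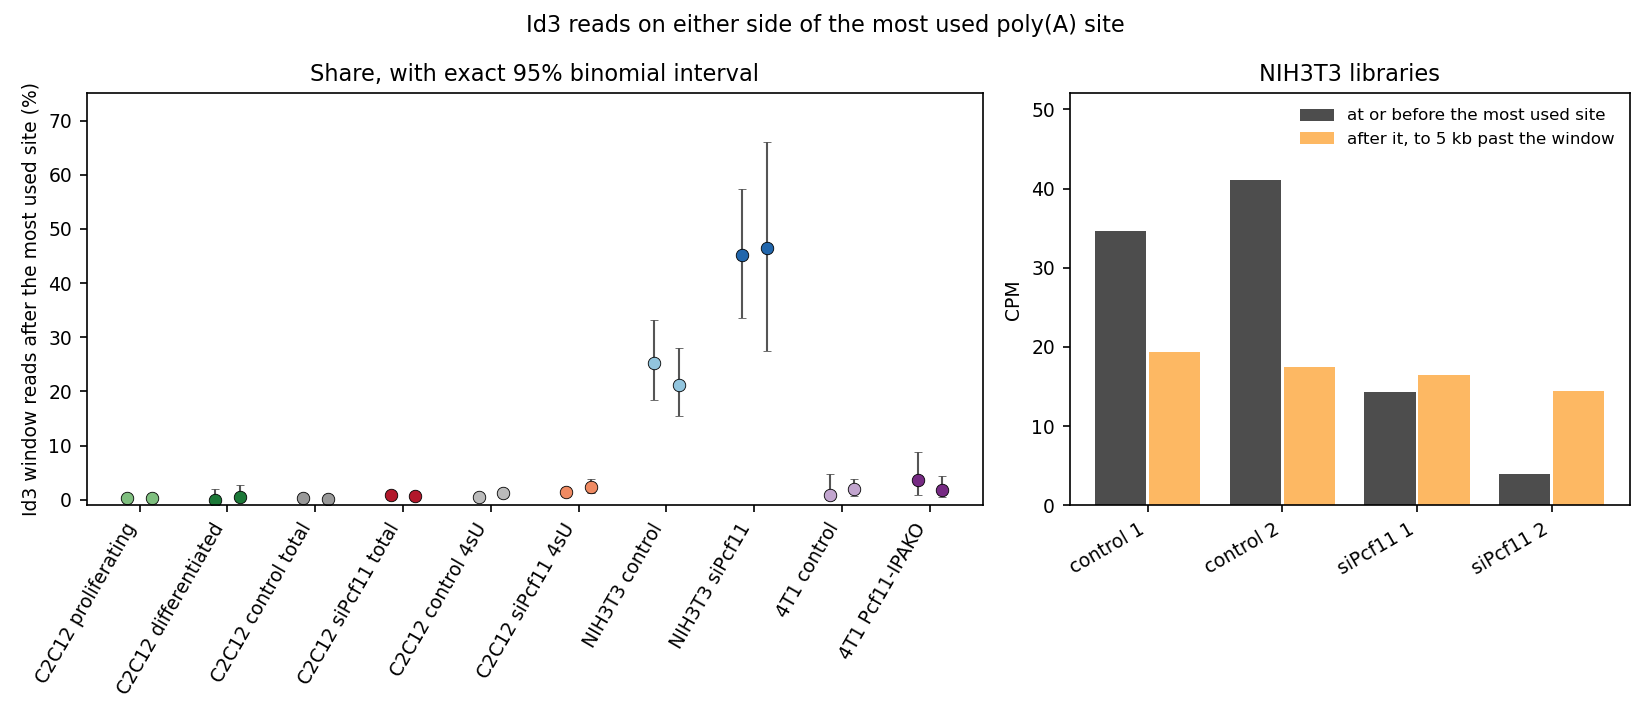
Left, percent of Id3 window reads after the most used poly(A) site in each of the 20 libraries, with exact 95% binomial intervals; right, bars of CPM at or before that site and after it in the 4 NIH3T3 libraries. The 4 NIH3T3 libraries stand at 21.3 to 46.4% and all others at or under 3.57%, and in NIH3T3 the dark bars differ between the groups more than the light ones.

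Use of single sites was tested with edgeR's diffSpliceDGE on sites that held at least 5% of their feature's reads. Id3 was the only member with at least 2 such sites: 2 in C2C12 and 4T1, and 3 in NIH3T3. No Id3 site passed in any of the 8 comparisons within a cell line. The shares of all tested sites that passed were 8.5% in differentiation, 15.9% for siPcf11 in C2C12 total RNA, 13.5% for siPcf11 in 4sU RNA and 0.0128% for the difference of these responses. They were 2.9% for 4sU against total RNA in untreated and 1.55% in siPcf11 C2C12, 0.0549% in NIH3T3 and 0.412% in 4T1. Within the windows as set, a single Id3 site in 1 comparison had an unadjusted p under 0.05: the site 29 bases upstream, in untreated 4sU against total RNA (adjusted p = 0.357, edgeR). In NIH3T3 the log2 use of the most used site was −0.64 (adjusted p = 0.981, edgeR) and that of the site 370 bases after it 0.66 (adjusted p = 1.00, edgeR). With the window extended by 5 kb, a setting chosen after the data were seen, these were −0.92 (unadjusted p = 0.0417; adjusted p = 0.671, edgeR) and 0.38, and the site at 1964 bases had 1.00 (adjusted p = 0.753, edgeR).

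In 4T1, no member passed for Pcf11-IPAKO against untreated cells (0 of the 2 members tested in edgeR), where 4.17% of 10420 features passed. None had an unadjusted p under 0.05 in the edgeR fit without a replicate block. Id1 had 68.6 and 103.7 CPM in untreated and 101.3 and 134.6 CPM in Pcf11-IPAKO libraries. These overlapped, and the log2 difference was 0.52 (SE 0.30; adjusted p = 0.472, edgeR). Each same-numbered pair of libraries was higher in Pcf11-IPAKO, and deviations of same-numbered 4T1 libraries correlated at 0.389. With the replicate number as a block, the Id1 difference was 0.53 (adjusted p = 0.0752, edgeR). Id3 had 51.0 and 96.7 CPM in untreated and 58.2 and 57.9 CPM in Pcf11-IPAKO libraries, with a log2 difference of −0.27 (SE 0.34; adjusted p = 0.793, edgeR). Myod1 had 0 reads in these 4 libraries.

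Untreated cells of the 3 lines were compared next. These comparisons share their control libraries with each other, and line and library set cannot be told apart. Against NIH3T3, C2C12 total RNA had at least 12.3-fold more Myod1 (adjusted p = 1.55e-05, edgeR) and a log2 difference in Id3 of 4.20 (SE 0.32; adjusted p = 3.57e-12, edgeR). Id1 differed by 0.45 (SE 0.22; adjusted p = 0.0720, edgeR), and passed with library totals (0.59, adjusted p = 0.0241, edgeR). In this comparison 65.6% of 17073 features passed.

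Against 4T1, C2C12 total RNA had at least 11.4-fold more Myod1 (adjusted p = 4.64e-05, edgeR). The log2 difference in Id3 was 3.46 (SE 0.30; adjusted p = 1.31e-10, edgeR). Id1 differed by 0.52 (SE 0.22) with an adjusted p of 0.0501 in edgeR, and passed in 7 of its alternatives. Here 48.9% of features passed. Between 4T1 and NIH3T3, where 64.5% passed, Id3 differed by 0.74 (SE 0.30; adjusted p = 0.0316, edgeR), although the CPM values of the libraries overlapped. Without 4T1 control replicate 2 it was 0.24 (adjusted p = 0.554, edgeR), and it also missed the threshold without either NIH3T3 control library (0.65, adjusted p = 0.0865, and 0.75, adjusted p = 0.0515, edgeR). It was also lost with library totals (0.60, adjusted p = 0.0845, edgeR), with DESeq2 size factors in edgeR (0.63, adjusted p = 0.0528) and in DESeq2 (0.63, adjusted p = 0.0911). Id1 differed by −0.07 (SE 0.22; adjusted p = 0.809, edgeR).

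The proliferating and the untreated C2C12 libraries came from different sets. No member passed between them (0 of 3 tested in edgeR, where 2.23% of features passed). The spread came from the fit of all 20 libraries. The CPM values did not overlap for Myod1, Id1 or Id3, at 1.54, 0.744 and 1.50 times the untreated mean CPM in proliferating cells. The log2 differences of proliferating against untreated total RNA were 0.65 (SE 0.46) for Myod1, −0.40 (SE 0.22) for Id1 and 0.61 (SE 0.27) for Id3, with adjusted p of 0.684, 0.486 and 0.349 in edgeR. Id3 alone had an unadjusted p under 0.05.

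The response to siPcf11 was also compared between C2C12 total RNA and NIH3T3. The Id3 response in C2C12 minus that in NIH3T3 was 1.53 on the log2 scale (SE 0.43; adjusted p = 0.0292, edgeR), 1 of 2 members tested, in a comparison in which 6.61% of 17073 features passed. The 2 siPcf11 libraries of NIH3T3 that set the size of this difference were the ones that lay far apart. Without NIH3T3 siPcf11 replicate 2 it was 0.82 (adjusted p = 0.0936, edgeR), and without replicate 1 it was 2.70 (adjusted p = 1.50e-11, edgeR). It also missed the threshold without any one of the 4 C2C12 libraries, at 1.37 to 1.66 (adjusted p from 0.0687 to 0.160, edgeR), with library totals (1.28, adjusted p = 0.0801, edgeR) and with no filter on low counts (1.42, adjusted p = 0.0587, edgeR). For Id1 the difference of the responses was −0.56 (SE 0.31; adjusted p = 0.355, edgeR).

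**Figure D3:**
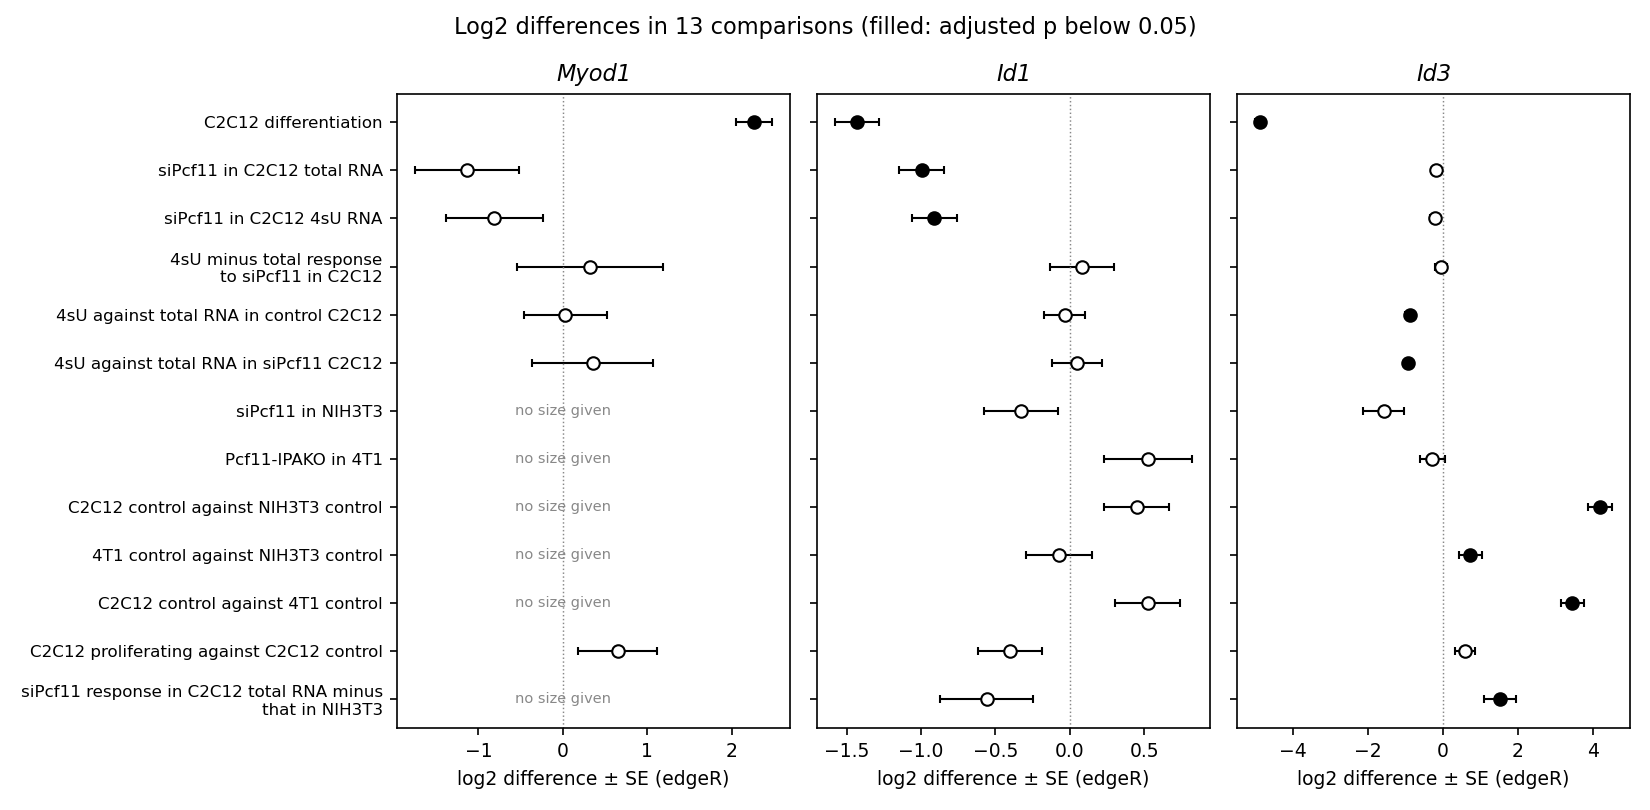
Log2 differences with their SE for Myod1, Id1 and Id3 in the 13 comparisons, filled where the adjusted p in edgeR was below 0.05; each panel has its own axis. Differentiation is filled in all 3 panels, siPcf11 in C2C12 only for Id1, and the 4sU against total RNA comparisons only for Id3.

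The features whose level was most like a member's across the 10 groups were sought among 12342 features with at least 10 CPM in a group, by Pearson's r of log2 of mean CPM plus 1. The 10 group means share libraries and depth, so r is a description. For Myog the likest feature, on the plus strand of chromosome 2 (163328330 to 163328521), had r = 0.999 and 61.9 CPM in differentiated C2C12. For Myod1 it was a feature on the minus strand of chromosome 12 (28019457 to 28025923) with r = 0.991. For Id3 it was on the plus strand of chromosome 13 (68731159 to 68731215), with r = 0.974. For Id1 it was on the minus strand of chromosome 10 (128254951 to 128255549), with r = 0.944. The second likest had r of 0.999, 0.990, 0.971 and 0.934 for Myog, Myod1, Id3 and Id1. The files carry no gene names for these.

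The RNA-seq of 3T3-L1 names its genes, so the wider pathway could be read there, with 1 library a group and no test. All 8 preadipocyte or fibroblast markers were listed, among them Col1a1 and Pdgfra. Of 6 adipocyte markers, Adipoq, Plin1 and Cidec, which mark mature fat cells, were listed in neither library. The other three were listed: Lpl had 1079 counts in the control library and 872 in the library labelled siPcf11, Fabp4 had 845 and 552, and Pparg had 201 and 187. The summed adipocyte markers had 248 and 230 CPM. Of 10 muscle markers, 7 were listed in neither library, Myog and Myod1 among them. The summed muscle markers had 160 CPM in the control library and 127 CPM in the library labelled siPcf11. Most of it came from Tnnt2, a troponin gene, at 119 and 78.1 CPM, a ratio of 0.655. Of the muscle markers with at least 100 counts, only Tnnt2 was past 1.5-fold. Acta1 went the other way, at 39.0 and 46.9 CPM, and Des had 19 and 15 counts. The files list no gene under 5 counts, so an unlisted gene may have had a few reads.

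Id1 had 1118 counts (130 CPM) in the control library and 862 (123 CPM) in the library labelled siPcf11. The ratio was 0.945, with an exact 95% counting interval of 0.864 to 1.03. Id3 had 340 and 301 counts, 39.7 and 43.0 CPM, with a ratio of 1.09 (0.926 to 1.27). Both intervals include 1. Neither Id gene was past 1.5-fold, while 5.86% of 9143 genes with at least 100 counts and reads in both libraries were, 161 higher and 375 lower.

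The partners and inhibitors were read from lists. Of 13 myogenic factors and partners, 6 had at least 100 counts and 0 of them were past 1.5-fold, with a median log2 ratio of −0.03, the value of all genes too. These were the E proteins Tcf3, Tcf4 and Tcf12, with ratios of 0.907, 0.910 and 0.940, and Mef2a, Mef2d and Six4. Of 10 other inhibitors of bHLH factors, 6 had at least 100 counts and 0 were past 1.5-fold, with a median of −0.20. The lowest of these were Twist1 at 0.753 and Zeb1 at 0.756, and Twist2 was highest at 1.21. Of 17 BMP-SMAD genes, 9 had at least 100 counts and 0 were past 1.5-fold, with a median of −0.01. Among these 9, Smad5 had a ratio of 0.802 and Smad7 1.24, neither past 1.5-fold. With 1 library a group, no direction of the pathway is read from them.

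**Figure D4:**
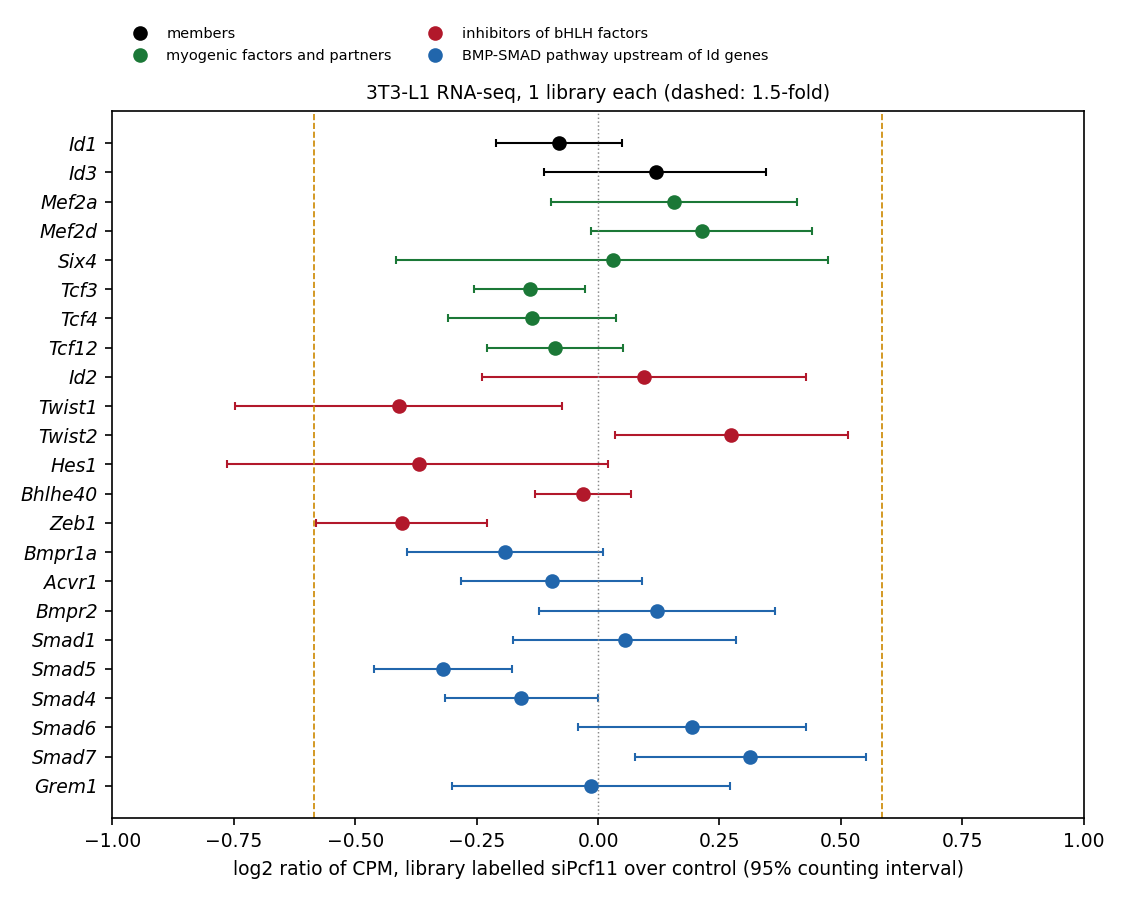
Log2 ratio of CPM in the 3T3-L1 library labelled siPcf11 over the control library, 1 library each, for the 2 Id members and the listed genes with at least 100 counts, with 95% counting intervals. All 23 points lie inside the dashed lines at 1.5-fold.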

How the data were processed

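The deposited 3′READS files hold a whole-number read count per poly(A) site, and the deposited RNA-seq files a count per gene symbol; the authors left both unnormalized. The submitters' processing notes name cutadapt, Bowtie2, STAR and mm9, with no versions. The way sites were clustered is not given in the sources used here.

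Members and gene lists were chosen with earlier results of these data known. Each member was the sum of all listed sites in its window. Other features were sites with at least 1 CPM in at least 2 libraries of a line, chained over gaps of up to 5 kb. The main test was edgeR's quasi-likelihood F (edgeR 4.0.16 on R 4.3.3, with limma 3.58.1) on TMM-scaled counts kept by filterByExpr at a minimum count of 10. The p-values of all features were adjusted together by Benjamini-Hochberg and read at 0.05. The 8 C2C12 libraries of the siRNA set were fitted together, differentiation, NIH3T3 and 4T1 apart, and comparisons between lines in a fit of all 20 libraries. An SE is the log2 difference divided by the square root of F. Tests were tried on simulated data. Alternatives were DESeq2 1.42.0, other scalings, no filter, gaps of 2 and 10 kb, kept sites only, a block for the replicate number, and leaving out each library; windows extended by 5 kb and a block tying 4sU to total RNA were added after seeing the data. Members with a test were named in every comparison, and members without a test were not always named. A fold was left out where every group of a pair had at most 3 reads. Ratios of RNA-seq counts carry exact intervals (95%) for counting error only. For 2 against 2 libraries the smallest exact two-sided permutation p is 0.333. Tables and plots used Python 3.11.15, pandas 2.3.3, scipy 1.17.1 and matplotlib 3.10.9.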

Additional observations from a re-analysis of the deposited data

Results flagged for a closer look

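The response of Id3 to siPcf11 passed a test of its difference between 2 cell lines, but the call depended on settings and on single libraries. The log2 response in C2C12 total RNA minus that in NIH3T3 was 1.53 (SE 0.43; adjusted p = 0.0292, edgeR). The call was lost with library totals (1.28, adjusted p = 0.0801, edgeR), with no filter on low counts (1.42, adjusted p = 0.0587, edgeR), without any one of the 4 C2C12 libraries (adjusted p from 0.0687 to 0.160, edgeR) and without NIH3T3 siPcf11 replicate 2 (0.82, adjusted p = 0.0936, edgeR). In their own fits the responses were −0.17 in C2C12 and −1.57 in NIH3T3, and neither passed. With the TMM factors of the fit of all libraries, Id3 in C2C12 total RNA had 847 and 899 CPM in untreated and 759 and 922 CPM in siPcf11 libraries, which overlapped. The 2 siPcf11 libraries of NIH3T3 held 26.1 and 7.32 CPM of Id3 in the window, with 13 and 42 further reads in the 5 kb after it.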

How the results depend on the processing

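Of 36 member results with a test, 14 passed, and 12 of these passed in every alternative run: all 4 in differentiation, Id1 under siPcf11 in C2C12 total and 4sU RNA, Id3 in 4sU against total RNA of both cell groups, and Myod1 and Id3 in C2C12 against NIH3T3 and against 4T1. Of 506 values under alternatives, 453 kept direction and side of the threshold, 13 lost the call, 16 gained it and 24 changed sign, the latter with no call on either side. Member sites called numbered 0 in all 68 values of site use. Where a setting changed a call or a sign, the cause was not tested. With library totals, Id3 under siPcf11 passed at −0.34 in C2C12 total and −0.52 in 4sU RNA, Id1 passed in C2C12 against NIH3T3 (0.59) and against 4T1 (0.80), Id3 in 4T1 against NIH3T3 (0.60) and the Id3 response difference between lines (1.28) lost the call, and Id1 changed sign in the response difference of 4sU and total RNA (−0.054) and in 4sU against total RNA (0.042 untreated, −0.012 siPcf11). Id3 under siPcf11 in 4sU RNA passed with the 4 compared libraries alone (−0.28). Id1 in untreated 4sU against total RNA changed sign with DESeq2 size factors (0.0047), DESeq2 (0.0044) and the 4 compared libraries alone (0.057). With no filter, Myod1 there was −2.8e-05, and the Id3 response difference between lines was 1.42 and lost the call. For 4T1 against NIH3T3, Id3 lost the call with DESeq2 size factors (0.63) and DESeq2 (0.63). For C2C12 against 4T1, Id1 passed with DESeq2 size factors (0.52), a gap of 10 kb (0.53), kept sites only (0.54), windows extended by 5 kb (0.52) and DESeq2 (0.51). Library totals also moved the split of features called higher and lower from 2685 and 3048 to 2014 and 3647 for siPcf11 in C2C12 total RNA, from 3157 and 2779 to 1953 and 3965 in 4sU RNA, from 77 and 17 to 34 and 37 for the difference of these responses, from 1239 and 1844 to 1498 and 1432 for untreated 4sU against total RNA, and from 619 and 509 to 313 and 813 for the response difference between lines.

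With each library left out in turn, Id3 under siPcf11 ranged from −0.20 to 0.050 in C2C12 total RNA, from −0.59 to −0.027 in 4sU RNA, from −2.77 to −0.88 in NIH3T3 and, for Pcf11-IPAKO, from −0.64 to 0.20 in 4T1. Id1 ranged from −0.59 to −0.11 in NIH3T3. The 4sU minus total response ranged from −0.33 to 1.24 for Myod1, −0.22 to 0.17 for Id1 and −0.51 to 0.12 for Id3. In 4sU against total RNA, Myod1 ranged from −0.20 to 0.25 and Id1 from −0.12 to 0.034 in untreated cells, and Myod1 from −0.23 to 1.35 and Id1 from −0.17 to 0.10 in siPcf11 cells. Between lines, Id3 ranged from 0.24 to 1.10 and Id1 from −0.36 to 0.17 in 4T1 against NIH3T3, Id1 from 0.29 to 0.82 in C2C12 against 4T1, and the Id3 response difference from 0.82 to 2.70. Where edgeR called no member, DESeq2 called none either, with no adjusted p for Myod1 in the difference of the 4sU and total responses. Counts of called features moved most in NIH3T3, from 0 to between 0 and 5000 with a library left out and 332 with DESeq2. They were 1634 and 1162 with DESeq2 against 3083 and 2046 for 4sU against total RNA (1573 to 2608 and 1185 to 1763 with a library left out), 32 against 94 for the difference of these responses (24 to 92), 650 against 380 for proliferating against untreated C2C12 (81 to 135), and 466 to 2782 against 1128 for the response difference between lines.

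Replicates share only a number. The titles label the C2C12 total RNA libraries input, beside 4sU libraries of the same numbers. With a block tying 4sU to total RNA, Id3 in 4sU against total RNA was −0.88 in untreated and −0.94 in siPcf11 cells. Deviations of same-numbered libraries correlated at 0.389 in 4T1 and between −0.04 and 0.08 in the other comparisons. With that number as a replicate block, Id3 was −0.16 and Id1 −0.99 for siPcf11 in C2C12 total RNA, no member's call changed in any comparison, and the features called rose from 434 to 1581 in 4T1 and from 94 to 217 for the difference of the 4sU and total responses. The depth limits Myod1 and Myog: outside differentiated C2C12, Myod1 had at most 64 reads in a group.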

Other observations

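The minor sites of the Id genes gave a few further values. The Id3 site 29 bases before the most used one held 20.7 ± 3.18% of window reads in untreated and 20.8 ± 9.27% in siPcf11 NIH3T3 (SD, n = 2). In C2C12 it held between 7.40 ± 0.0650% (siPcf11 total RNA) and 10.7 ± 0.915% (untreated 4sU RNA). In 4T1 it held 5.30 ± 1.26% in untreated and 11.8 ± 4.81% in Pcf11-IPAKO cells, with libraries at 4.41 and 6.19% against 8.37 and 15.2%. The Id1 site 116 bases before the most used one held between 1.04 ± 0.385% (4T1 untreated) and 3.94 ± 2.17% (differentiated C2C12) of window reads.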
